A study of Homo sapiens with 6 samples.

Results

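Cancer/testis genes outside the MAGE families were examined in MDA-MB-231 cells, as 10 of the 17100 transcripts in the deposited table. The 10 members were CTAG2, CSAG1, PAGE2B, XAGE3, SSX7, GAGE1, GAGE12J, CT45A7, CT45A10 and CT83, found by the gene symbol of their row. The symbols were selected on the difference between guadecitabine and vehicle in these same libraries, so that the differences of the members are given as a description, without p-values of single members. Counts of members called are set beside the share of all genes called, and nothing is read from them. MDA-MB-231 is an established line from a human triple-negative breast adenocarcinoma. A group of 3 libraries came from vehicle-treated cells, and the other 3 came from cells given 1 µM guadecitabine (SGI-110) during 96 h and then kept for 24 h without drug. Both groups were grown in the same medium, the replicates are stated to be independent experiments, and all libraries stem from this single line. Neither group carried a further agent, the vehicle was likewise applied for 96 h, and what it contained in these cultures is not given in the sources used here.

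Cancer/testis antigens are proteins made in the germ cells of the testis and in some tumors, but in few or no other adult tissues. Most of their genes lie on the X chromosome in groups of near-identical copies, and many are kept silent in somatic cells by methylation of CpG sites in their promoters. Guadecitabine is a dinucleotide that releases decitabine, a nucleoside that traps DNA methyltransferases on newly made DNA, so that methylation is lost as cells divide. CTAG2 belongs to the NY-ESO-1 family, whose peptides are targets of T cells. PAGE2B, XAGE3, GAGE1 and GAGE12J belong to the GAGE superfamily of small acidic proteins. SSX7 belongs to the SSX family of nuclear repressors, some of whose relatives are fused to SS18 in synovial sarcoma. CT45A7 and CT45A10 belong to a family of nuclear proteins, CSAG1 to a small family interspersed with the MAGE-A genes, and CT83 encodes KK-LC-1, a T-cell target first described in lung cancer.

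Of the 10 members, 9 had promoters in the RefSeq table used here (build GRCh38.p14), which holds 250 bases before and 50 bases after the start site, and CTAG2 was the member without one. The promoters below are shown because CpG sites, in capitals, are where DNA methyltransferases act. They are those of PAGE2B, XAGE3 and GAGE1 from the GAGE superfamily, of SSX7 with the fewest CpG sites, and of CT83, the member whose groups overlapped. Each is written 5′ to 3′ on the strand of its gene. On GRCh37, the PAGE2B promoter matched chrX:55101213-55101512 on the plus strand and the XAGE3 promoter chrX:52897065-52897364 on the minus strand. The GAGE1 promoter matched chrX:49363366-49363665 on the plus strand, the SSX7 promoter chrX:52683901-52684200 on the minus strand and the CT83 promoter chrX:115594088-115594387 on the minus strand.
PAGE2B: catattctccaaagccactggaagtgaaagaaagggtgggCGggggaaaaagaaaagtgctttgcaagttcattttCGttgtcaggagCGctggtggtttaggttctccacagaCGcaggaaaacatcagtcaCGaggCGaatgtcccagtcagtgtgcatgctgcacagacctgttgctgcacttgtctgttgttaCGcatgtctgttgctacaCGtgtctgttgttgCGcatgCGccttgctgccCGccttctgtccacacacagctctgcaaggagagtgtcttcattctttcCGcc
XAGE3: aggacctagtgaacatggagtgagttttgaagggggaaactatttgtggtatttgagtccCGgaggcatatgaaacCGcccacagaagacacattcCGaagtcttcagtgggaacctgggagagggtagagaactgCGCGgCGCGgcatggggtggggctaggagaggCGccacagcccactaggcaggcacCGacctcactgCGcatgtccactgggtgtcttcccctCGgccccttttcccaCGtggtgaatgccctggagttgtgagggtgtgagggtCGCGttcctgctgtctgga
GAGE1: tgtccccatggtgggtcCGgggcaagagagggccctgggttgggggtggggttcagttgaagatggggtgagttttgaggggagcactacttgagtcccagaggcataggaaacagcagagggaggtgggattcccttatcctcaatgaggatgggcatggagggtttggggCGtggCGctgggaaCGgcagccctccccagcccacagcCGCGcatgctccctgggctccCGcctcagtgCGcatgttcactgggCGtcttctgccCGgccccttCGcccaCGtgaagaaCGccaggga
SSX7: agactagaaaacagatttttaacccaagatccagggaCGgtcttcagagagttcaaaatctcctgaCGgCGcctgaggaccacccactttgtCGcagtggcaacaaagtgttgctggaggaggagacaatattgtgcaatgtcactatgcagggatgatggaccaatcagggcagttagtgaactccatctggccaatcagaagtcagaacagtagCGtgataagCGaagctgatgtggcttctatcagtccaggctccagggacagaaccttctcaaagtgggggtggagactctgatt
CT83: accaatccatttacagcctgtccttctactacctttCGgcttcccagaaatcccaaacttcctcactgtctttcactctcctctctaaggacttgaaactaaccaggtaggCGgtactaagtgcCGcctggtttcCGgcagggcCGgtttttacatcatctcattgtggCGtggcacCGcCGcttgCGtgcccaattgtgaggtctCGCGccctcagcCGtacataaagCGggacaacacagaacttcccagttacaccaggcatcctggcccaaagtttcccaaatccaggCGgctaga

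The 9 promoters held between 6 CpG sites, in SSX7, and 18, in CT45A10. Their median of 13 lay below the median of 24 over 12821 promoters of genes in the table, and below the median of 21 over the 507 promoters of chromosome X among them. The tabulated promoter of CT45A7 matched 4 places on GRCh37, the nearest 19029 bp from the start of the row with that label, and that of CSAG1 matched 0 places, so that neither was placed at the row measured. The other 7 promoters, each within 100 bp of the start of its row, also had a median of 13. The promoter of CT83 had 14 CpG sites, the same number as XAGE3, so that its count lay within the range of the members whose groups did not overlap. In GAGE1 and GAGE12J, 12 of the 13 CpG sites lay from 100 bp before the start site to the end of the window, whereas in PAGE2B 6 of 12 and in SSX7 2 of 6 did. The promoters of GAGE1 and GAGE12J shared 293 of 300 bases with 0 mismatches, aligned with gaps at the ends, and each of them was found unchanged at 9 places on the X chromosome of GRCh37. Motifs were searched by their letters on both strands, and in the 9 promoters no match overlapped another. The E-box CACGTG occurred in 4 of the 9 promoters, those of PAGE2B, XAGE3, GAGE1 and GAGE12J, and in 9.31% of all promoters. The ETS core CCGGAAG occurred in 1 of the 9, that of CT45A10, and in 15.6% of all, and TATAAA in 0 of the 9 and in 7.65% of all. A motif match is a stretch of letters and says nothing on the binding of a factor, and methylation was not measured in these libraries.

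**Figure D1:**
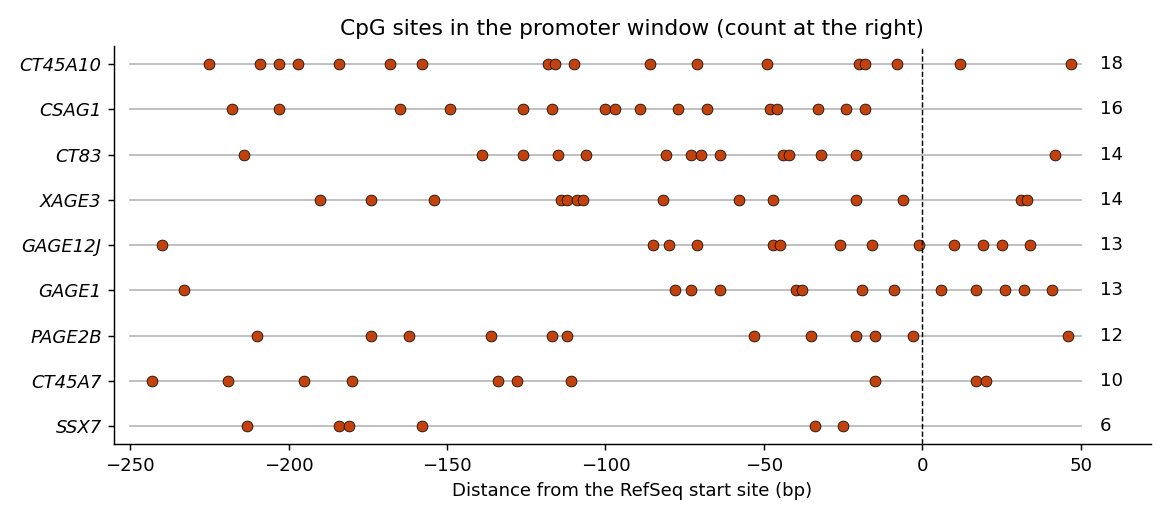
CpG sites of the 9 member promoters by distance from the RefSeq start site in bp (dashed line at 0), 1 line per gene and 1 point per CpG, with the count at the right. SSX7 has 6 sites and CT45A10 has 18, and the sites of GAGE1 and GAGE12J gather from 100 bp before the start site onward.

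All 10 rows lie on the X chromosome, but not every row marks a single gene. In the GENCODE annotation on GRCh37, the build of the deposited coordinates, CTAG2 (chrX:153880246-153881853) has 2 exons, CSAG1 (chrX:151903227-151909518) has 6, PAGE2B (chrX:55101489-55105336) and XAGE3 (chrX:52891558-52897119) have 5 each, SSX7 (chrX:52673111-52683950) has 8 and CT83 (chrX:115592853-115594194) has 2. Each of these 6 intervals held 1 protein-coding gene, as did that of GAGE1 (chrX:49363616-49373139). The row of GAGE12J runs over 116080 bp (chrX:49178509-49294588) and covers 8 protein-coding genes of the GAGE array. The row of CT45A10 (chrX:134945651-134975579) covers 4 protein-coding genes, CT45A10, CT45A6, CT45A7 and CT45A9. The row labelled CT45A7 (chrX:134847386-134856984, plus strand) lies at the gene that GENCODE names CT45A1, while the annotated CT45A7 lies inside the interval of the CT45A10 row, on the other strand. The label of this row therefore differs from the gene annotated at its position.

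Stretches of the exon sequence that occur once in the genome show how far reads can be assigned to 1 copy. They were cut from 1 GENCODE transcript per row, which can differ from the exons counted. Its exons held 993 bp against 764 bp counted in CTAG2, and 638 bp against 1183 bp in CT45A10. In XAGE3, CT83 and CSAG1, 99.3%, 98.1% and 95.7% of stretches of 50 bases were unique, and in GAGE1 90.6% were. In CTAG2, whose sequence is shared in part with the NY-ESO-1 genes, 58.1% were unique. In CT45A10, PAGE2B and SSX7 the share was 38.9%, 37% and 34.6%. It was 12.7% in GAGE12J and 3.58% at the position of the CT45A7 row, and with stretches of 100 bases both fell to 0%. The median stretch of GAGE12J occurred at 14 places in the genome. The counts of GAGE12J and CT45A7, and to a lesser degree those of PAGE2B, SSX7 and CT45A10, are therefore uncertain as counts of a single copy. How the authors' counting treated reads that match several places is not given in the sources used here.

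**Figure D2:**
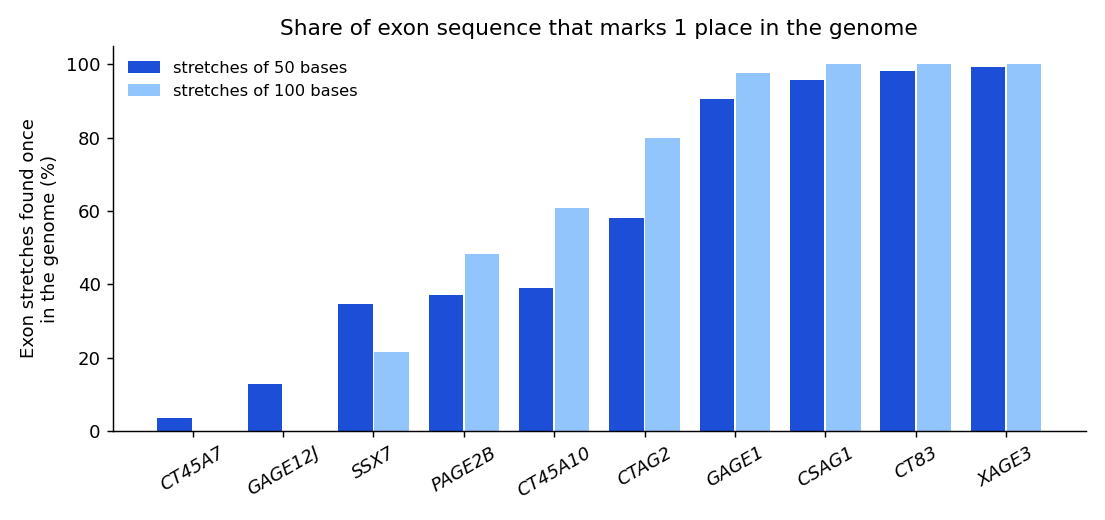
Share of the exon stretches of each member that occur once in the GRCh37 genome, in percent, for stretches of 50 bases (dark bars) and 100 bases (light bars). CT45A7 and GAGE12J stand at 3.58% and 12.7% for 50 bases and at 0% for 100 bases, while XAGE3, CT83 and CSAG1 are above 95%.

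The libraries held from 8792127 counts, in guadecitabine replicate 2, to 22277442, in vehicle replicate 3. VIM, a mesenchymal marker of this line, was between 37099 and 53173 normalized reads per kb in the 6 libraries. EGFR was between 241 and 355, and CDH1 between 2.53 and 13.9. ERBB2 RNA was not low in this triple-negative line, at 313 to 369 normalized reads per kb in vehicle and 195 to 230 after guadecitabine. Its log2 fold change was -0.74 (adjusted p = 0.00122 in edgeR's test), and its protein was not measured in these libraries. ESR1 and PGR, the hormone receptors this line lacks, had at most 1 read in 5 libraries, but 67 and 43 reads in vehicle replicate 3. That library stood apart from the rest in silent genes. Over 2774 other transcripts with at most 1 read in vehicle replicates 1 and 2, it had a median of 6.0 reads per kb, and 11 of them had 0 reads. Values that rest on it are therefore also given without it. Normalized reads per kb are counts brought to a common library size with edgeR's TMM factors and then expressed per kb of counted exon, so that levels of different genes can be set side by side.

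Across the 6 libraries, 9 of the 10 members were higher in each guadecitabine library than in each vehicle library in normalized counts, a pattern shown by 21.1% of all transcripts. CT83 was the exception. edgeR's filter on low counts kept 8 of the 10 members, leaving out GAGE1 and CT45A10. Of the 8 tested, 7 were called higher and 0 lower (adjusted p under 0.05), against 19.3% of all tested genes called higher and 18.4% called lower. The fit without the filter, DESeq2 and the fits without vehicle replicate 3 or without guadecitabine replicate 2 also gave 7 higher and 0 lower. Among tested genes of chromosome X, 21.2% were called higher. Nothing is read from these shares, since the members were chosen on this difference, and several passed the filter only through the guadecitabine libraries. In bulk RNA, more cells expressing a gene and more RNA of it per cell cannot be told apart.

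CTAG2, the NY-ESO-1 relative, was at 1, 0 and 2 reads in vehicle replicates 1, 2 and 3, and at 305, 259 and 378 reads in guadecitabine replicates 1, 2 and 3. The vehicle libraries were thus at the limit of detection, set at 3 reads, and the guadecitabine libraries were far above it in each replicate. Normalized for depth and length, its level after guadecitabine was 323, 689 and 499 reads per kb, or 504 ± 183 (SD, n = 3), with the shallowest library the highest. This level lay above that of 81% of all transcripts in the same libraries. The log2 fold change fitted by edgeR was 8.53 (standard error 0.508). The ratio of the pooled normalized counts was 380, with a 95% exact interval from 130 to 1848, which covers counting error only. Such fitted fold changes depend on how few vehicle reads there are, and without vehicle replicate 3 the log2 fold change of CTAG2 was 9.23. Where no vehicle read is left without that library, as in GAGE12J, CT45A7 and SSX3, the fitted value depends on the prior count and is no bound.

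CSAG1, which lies among MAGE-A genes, was at 1, 2 and 1 reads in the vehicle libraries and at 60, 15 and 49 in the guadecitabine libraries. Its level after guadecitabine was 73.5, 46.2 and 74.9 reads per kb, with replicate 2 the lowest, in contrast to CTAG2, where that replicate was the highest. The log2 fold change was 5.00 (standard error 0.659). With 95.7% unique stretches, its reads can be assigned to CSAG1 with few alternatives.

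In the GAGE superfamily, PAGE2B and XAGE3 stood above the GAGE rows in each guadecitabine library, PAGE2B by far and XAGE3 by less. PAGE2B was at 1, 0 and 1 reads in vehicle and at 283, 120 and 284 reads after guadecitabine. Its level after guadecitabine was 451, 480 and 564 reads per kb, or 498 ± 58.7 (SD, n = 3), the narrowest relative spread of all 10 members. Its log2 fold change was 8.44 (standard error 0.374). XAGE3, also known from the placenta, had 0 reads in all 3 vehicle libraries and 59, 24 and 32 reads after guadecitabine. Its level was 92.5, 94.6 and 62.5 reads per kb after guadecitabine. Against the 3 reads that a total of 0 over the vehicle group allows, XAGE3 was at least 46.4-fold higher after guadecitabine. XAGE3 was thus at 0 also in vehicle replicate 3, the library with reads in most silent genes, and 99.3% of its stretches were unique. SSX7 was the other member without a read in that library.

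GAGE12J was at 0, 0 and 1 reads in vehicle and at 20, 11 and 17 reads after guadecitabine, or 40.9 ± 7.33 reads per kb (SD, n = 3). Its log2 fold change was 5.45 (standard error 0.985), and 7.09 without vehicle replicate 3, whose single read was the only one in the vehicle group. GAGE1 was at 0, 0 and 4 reads in vehicle and at 5, 6 and 10 reads after guadecitabine. Its guadecitabine libraries lay above its vehicle libraries, but the reads were too few to pass the filter. In a fit without the filter its log2 fold change was 2.95 (standard error 2.00), and 5.93 when vehicle replicate 3, which held all its vehicle reads, was also left out. The GAGE1 row counts 2998 bp of exons against 454 bp for GAGE12J, and at 2.93 ± 1.41 reads per kb (SD, n = 3) GAGE1 was the lowest of all members after guadecitabine. With the reads of both rows summed, the libraries held 0, 0 and 5 reads in vehicle and 25, 17 and 27 after guadecitabine, and the log2 fold change was 4.11 (standard error 0.989), or 7.63 without vehicle replicate 3. This sum was chosen after the data were seen. The paper scored its MDA-MB-231 cells as positive for GAGE by immunohistochemical staining, a measure of protein and not of RNA. With sequence shared among GAGE copies, few vehicle reads in these rows do not show that the GAGE genes were silent.

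SSX7, of the SSX repressor family, was at 0, 1 and 0 reads in vehicle and at 28, 23 and 31 reads after guadecitabine. Its level after guadecitabine was 16.9, 34.9 and 23.3 reads per kb, with replicate 2 above replicate 3 and replicate 3 above replicate 1, the order seen in CTAG2. Its log2 fold change was 6.26 (standard error 0.964). Without vehicle replicate 2, which held the only vehicle read, it was 8.07, and without vehicle replicate 3 it was 5.64.

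The row labelled CT45A7 was at 0, 0 and 5 reads in vehicle and at 46, 20 and 49 reads after guadecitabine, or 69.9 ± 10.4 reads per kb (SD, n = 3). Its log2 fold change was 4.76 (standard error 0.923), and 8.33 without vehicle replicate 3, which held all of its vehicle reads. At 6.35 reads per kb in that library, it stood close to the median of other silent transcripts there. CT45A10 was at 0, 1 and 10 reads in vehicle and at 12, 9 and 8 reads after guadecitabine, so that the raw reads of the groups overlapped. Scaled to depth and length, CT45A10 was at 0, 0.892 and 6.52 reads per kb in vehicle and at 8.20, 15.5 and 6.82 after guadecitabine, which separated the groups by a narrow gap. The reads of CT45A10 did not pass the filter, and without the filter its log2 fold change was 2.02 (standard error 1.62), or 4.12 when vehicle replicate 3 was also left out. With both CT45A rows summed, a setting also chosen after the data were seen, the vehicle libraries held 0, 1 and 15 reads and the guadecitabine libraries 58, 29 and 57, with a log2 fold change of 3.55 (standard error 0.918), or 6.41 without vehicle replicate 3.

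By the reads of these rows, CT83, the gene of KK-LC-1, was the member already expressed without the drug. It was at 147, 126 and 154 reads in vehicle and at 133, 76 and 123 reads after guadecitabine. Per kb this was 244, 232 and 207 normalized reads in vehicle and 187, 269 and 216 after guadecitabine. The groups overlapped, with the highest and the lowest value both among the guadecitabine libraries. The means were 227 ± 18.7 and 224 ± 41.5 reads per kb (SD, n = 3 each). The log2 fold change was -0.04 (standard error 0.190), and it ranged from -0.17 to 0.08 over the other settings. The ratio of the pooled counts was 0.942, with an exact 95% interval from 0.814 to 1.09 for counting error only. In vehicle, CT83 lay above 68.6% of all transcripts, while each of the other 9 members lay above 13.2% of them or less.

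**Figure D3:**
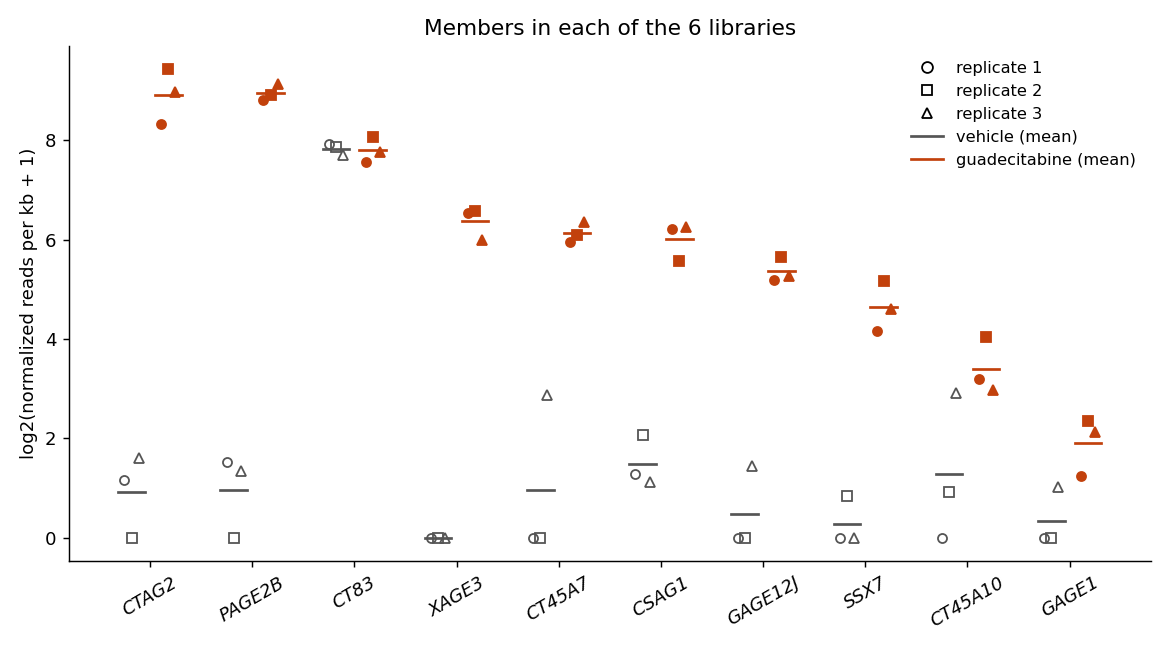
Level of each member in each library as log2(normalized reads per kb + 1), with open symbols for the 3 vehicle and filled symbols for the 3 guadecitabine libraries, symbol shapes for replicates and lines for the mean of the log values. CTAG2 and PAGE2B average 504 and 498 reads per kb after guadecitabine, CT83 stays between 187 and 269 reads per kb in all libraries, and the triangles of vehicle replicate 3 carry most of the vehicle signal of CT45A7 and CT45A10.

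After guadecitabine the order of the members by mean reads per kb was CTAG2 (504), PAGE2B (498), CT83 (224), XAGE3 (83.2), CT45A7 (69.9), CSAG1 (64.9), GAGE12J (40.9), SSX7 (25.04), CT45A10 (10.2) and GAGE1 (2.93). CTAG2 and PAGE2B could not be put in order, since CTAG2 was the higher in 1 of the 3 guadecitabine libraries. Both lay above CT83 in each guadecitabine library. The ranges of XAGE3 and CT45A7, of CT45A7 and CSAG1, and of CSAG1 and GAGE12J overlapped, so that these neighbours in the order did not differ beyond their spread. Below them SSX7, CT45A10 and GAGE1 were each separated from the member above. In 7 of the 10 members guadecitabine replicate 2 was the highest of its group, and in CSAG1, PAGE2B and CT45A7 it was replicate 3. Guadecitabine replicate 2 was also the library with the fewest counts, and the part of depth in this pattern was not tested.

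A total of 8 members had at most 1 read in vehicle replicates 1 and 2. In vehicle replicate 3 they ranged from 0 to 6.52 reads per kb, with a median of 1.61, and 6 of the 8 lay below 4.21, the lower quartile of the 2774 other transcripts chosen in the same way. A low vehicle level was part of what selected the members, so that these values are a description only.

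Over the 6 libraries, the 3 transcripts closest to CTAG2 by Euclidean distance of log2(reads per kb + 1) were PAGE2B (distance 0.852), MAGEA4 (1.46) and MAGEB2 (1.76). PAGE2B is itself a member, and MAGEA4 and MAGEB2 are MAGE genes of the germline type. The transcripts closest to CT83 were C16orf59 (0.180), UAP1L1 (0.240) and DGAT1 (0.246), with means between 223 and 228 reads per kb after guadecitabine. The 6 libraries fall into 2 groups, so that closeness mostly reflects the level in each group.

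The other genes of the same families were taken from a list of 58 symbols, of which 6 had a row. Of these, 4 passed the filter, and all 4 were called higher and 0 lower in edgeR's test, with a median log2 fold change of 4.87 against 5.85 for the 8 tested members and 0.02 for all tested genes. Of all tested genes, 19.3% were called higher. Genes near 0 reads in vehicle pass the filter only through the guadecitabine libraries, so that nothing is read from these calls. With XAGE3 set at its lower bound, the median of the members was 5.49. SSX1, one of the SSX genes fused in synovial sarcoma, was at 9, 8 and 29 reads in vehicle and at 1281, 351 and 1158 reads after guadecitabine, which edgeR fitted as a rise of 6.14 on the log2 scale (adjusted p = 2.00e-06, standard error 0.326). At 749 ± 180 reads per kb (SD, n = 3) SSX1 was well above SSX7 in each guadecitabine library. SSX3 was at 0, 0 and 13 reads in vehicle and at 149, 67 and 98 after guadecitabine, a rise of 4.93 in log2 units in edgeR's fit (adjusted p = 0.00178, standard error 0.838). Without vehicle replicate 3, which held all vehicle reads of SSX3 and more than the other vehicle libraries of SSX1, the values were 9.79 for SSX3 and 6.82 for SSX1. SSX5 had 9, 8 and 16 reads after guadecitabine against 0, 1 and 7 in vehicle and was left out by the filter. Among the SSX rows the level after guadecitabine thus ran from 9.56 reads per kb in SSX5 to 749 in SSX1. In SSX7, 34.6% of stretches of 50 bases were unique, and this share was not computed for SSX1, SSX3 and SSX5. How shared reads were divided is not given in the sources used here, so that differences in level between SSX rows are uncertain.

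PAGE2 is a near copy of PAGE2B, and how reads shared by both were divided is not given in the sources used here, so that their values were not compared. PAGE2 was at 8, 4 and 3 reads in vehicle and at 159, 78 and 112 reads after guadecitabine, a rise of 4.81 in log2 units in edgeR's fit (adjusted p = 4.16e-05, standard error 0.423). PAGE5 was expressed before treatment, with 50, 43 and 79 reads in vehicle, and rose to 319, 119 and 269 reads, a rise of 2.32 in log2 units (adjusted p = 1.89e-05 in edgeR's test, standard error 0.178). After guadecitabine PAGE5 was at 466 ± 26.6 reads per kb (SD, n = 3), beside the 498 ± 58.7 of PAGE2B, from a vehicle level of 92.9 ± 15.3 against 1.13 ± 0.995. With 37% unique stretches of 50 bases, the level of PAGE2B is uncertain as that of a single copy. PAGE1 had 0, 0 and 4 reads in vehicle and 3, 1 and 10 after guadecitabine, and its groups overlapped. PAGE5, like CT83, was thus present before treatment.

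Wider lists are given for scale. Of 28 other X-linked cancer/testis genes with a row, mostly MAGE and VCX genes, 19 were tested, of which 15 were called higher and 0 lower (median log2 fold change 4.08). The largest were VCX (log2 fold change 11.52, adjusted p = 5.81e-08 from edgeR) and VCX3A (10.16, adjusted p = 3.45e-07). Of 27 autosomal cancer/testis genes, 15 were tested, of which 6 were called higher and 1, the kinase gene TSSK6, lower (median 0.78). The largest were the RNA helicase gene DDX43 (5.98, adjusted p = 1.66e-05 from edgeR) and the meiosis gene HORMAD1 (4.76, adjusted p = 0.00267). Without vehicle replicate 3 the log2 fold changes were 13.21 for VCX, 7.48 for DDX43 and 9.52 for HORMAD1, but 9.60 for VCX3A, which was lower than with it. That of VCX3A was 11.96 without vehicle replicate 2 and 9.74 without vehicle replicate 1. Fitted values of this kind depend on how few vehicle reads are left. Several genes of the autosomal list, such as KDM5B and SPAG9, are expressed in many tissues, and the lists were not compared with a test. Of all tested genes, 19.3% were called higher and 18.4% lower. In these lists, too, genes near 0 reads in vehicle pass the filter only through the guadecitabine libraries. Nothing is therefore read from the counts called.

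**Figure D4:**
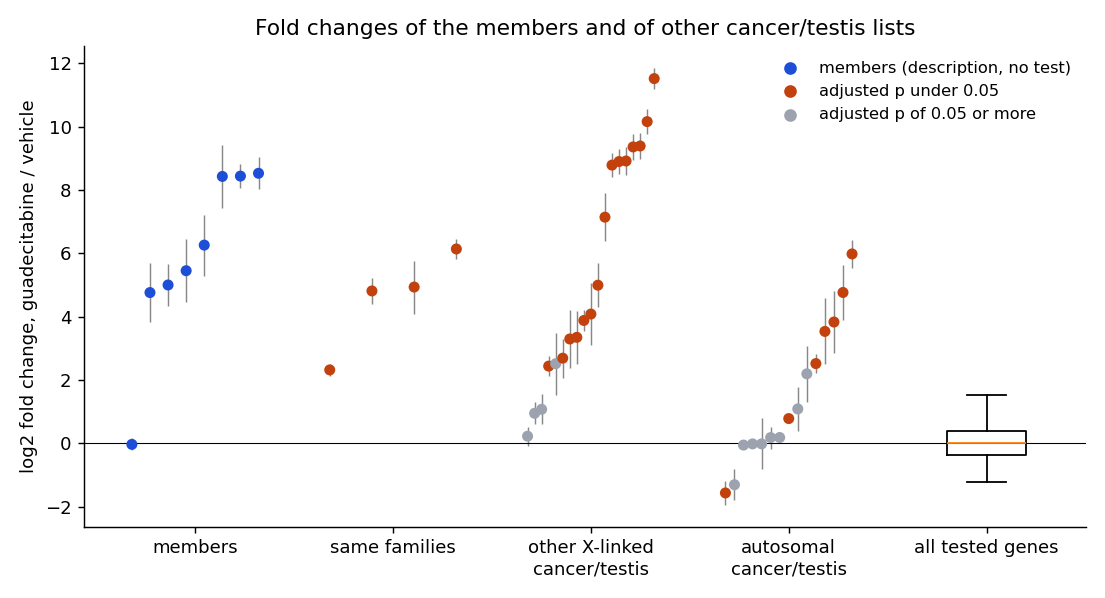
Log2 fold change of guadecitabine against vehicle from edgeR for each tested gene of the 4 lists (points, bars of 1 standard error), with all tested genes as a box of the quartiles and median and whiskers from the 5th to the 95th percentile. Blue marks the members, given as a description, and orange an adjusted p under 0.05 in the other lists. The member at 0 is CT83, and the other 7 lie between 4.76 and 8.53. XAGE3, at 8.43, had 0 reads in vehicle, so that its point and bar depend on the prior count.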

How the data were processed

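RNA of MDA-MB-231 cells was sequenced on an Illumina HiSeq instrument after TruSeq preparation, in 3 vehicle and 3 guadecitabine libraries grouped by their labels. The authors aligned reads with STAR 2.3.1z (per the labels) to hg19, equal to GRCh37, and deposited raw exon read counts per RefSeq transcript from iRNA-seq, with the exon length in bp. The deposited regularized log2 values, and the authors' DESeq2 log2 fold change, standard error, test statistic (a score), p-value, adjusted p-value and mean count, were not used.

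The quasi-likelihood fit of edgeR 4.0.16, run in R 4.3.3, was applied to the raw counts (TMM, filterByExpr with a minimum count of 10, Benjamini-Hochberg adjustment over 13322 genes, threshold 0.05). Normalized counts refer to a library of mean total. Standard errors were derived from the F statistic. On simulated counts of this comparison (13136 genes run), 71 of 100 genes changed 2-fold and 90 of 100 changed 4-fold were recovered, with 13 false calls. Counts were drawn around the mean of each gene over both groups. Recovery of genes near 0 reads in vehicle, as most members were, was therefore not examined. Library totals set the precision, intervals and floors cover counting error only, and the floor was 3 counts, over the group for XAGE3. Members and lists were chosen with earlier results of these data known. Named were all members, rows of the same families, the 3 closest transcripts to the highest member and to CT83, and the 2 largest called changes of each wider list. KDM5B, SPAG9 and SSX5 were named as examples or for completeness.

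Gene models were GENCODE release 44 on GRCh37. One transcript per row was cut into stretches of 50 and 100 bases, counted on both strands of the assembled chromosomes with Python 3.11.15. RefSeq promoter sequences were matched to chromosome X. The alternatives were the size factors of DESeq2, library totals only, no filter, a minimum count of 30, DESeq2 1.42.0, the replicate block and each library left out. Summing the rows of a family, and leaving out vehicle replicate 3 from these sums and from the fit without a filter, were added after the data were seen.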

Additional observations from a re-analysis of the deposited data

How the results depend on the processing

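The number of members called higher was 7 in each setting but the minimum count of 30, where 5 were, since that filter kept fewer members, and 0 were called lower throughout. The range without 1 library was 7 to 7 for members, 4 to 5 for genes of the same families, 12 to 18 for other X-linked and 4 to 8 for autosomal cancer/testis genes called higher. Over all genes it was 1706 to 3002 higher, against 2576, and 1629 to 2575 lower, against 2446, with the lowest counts without guadecitabine replicate 3. Autosomal genes called lower were 2 instead of 1 with a minimum count of 30 and with DESeq2, and the cause was not tested. With the replicate block, 7 members, 4, 15 and 7 genes of the other lists and 2424 genes in all were called higher and 2230 lower. Libraries of the same number deviated from their groups with correlations of -0.0376, 0.0383 and -0.0317, so that no pairing by number was seen. Groups of 3 libraries cannot exclude a pairing, and the block changed no call of a member. The log2 fold change of CT83 changed sign to 0.0028 with library totals only, to 0.021 without vehicle replicate 1 and to 0.083 without guadecitabine replicate 1, the highest value of that kind, with -0.17 without guadecitabine replicate 2 the lowest. It was called in none of these settings. PAGE2, PAGE5, SSX1, SSX3, VCX, VCX3A, DDX43 and HORMAD1 remained called higher under each of the alternatives run. All 80 member levels recomputed under another scaling or without a library moved by less than 1 SD. Leaving out 1 of 3 values cannot move their mean by their SD, and the other settings only rescale the levels. The 80 levels therefore say little on stability. For members with few vehicle reads, depth limits the fold change, since 1 read in vehicle replicate 2 or 3 moved the log2 value of SSX7 or GAGE12J by over 1.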

Other observations

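Genes around the members were examined for scale. Within 250 kb of the 10 members lay 42 tested genes that are on none of the cancer/testis lists, of which 9 were called higher and 10 lower in edgeR's test, with a median log2 fold change of -0.03. This share of 21.4% higher stood beside 21.2% of the tested genes of chromosome X. CTAG2 had 19 such neighbours, of which 4 were called higher and 4 lower. Among those called higher was H2AFB2, with a fitted log2 fold change of 9.52 (standard error 0.885). Such a fitted value depends on how few vehicle reads there are, and the uniqueness of its exons was not computed. It was therefore not ranked against the members. Absence from the lists does not show that a neighbour lacks expression in testis. SLC6A14, the neighbour of CT83, had a log2 fold change of 1.31 (standard error 0.464) and an adjusted p of 0.0509 in edgeR's test. The tested cancer/testis genes in the same windows were 5 in number, and each was called higher. They were MAGEA12, MAGEA3 and MAGEA6 near CSAG1 and PAGE2 and PAGE5 near PAGE2B. Cancer/testis rows left out by the filter were not counted, and genes near 0 reads in vehicle pass it only through the guadecitabine libraries. Nothing is therefore read from this count. These neighbours were named by distance, after earlier results were known, and the contrast between both kinds of neighbour was not tested.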
